A study of Mus musculus with 2 samples.

Results

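Transcripts of 10 genes of the Bcl2 family were followed in single cells of the mouse spinal cord: the survival genes Mcl1, Bcl2, Bcl2l1, Bcl2a1b and Bcl2a1d, the effectors Bax and Bak1, and the BH3-only genes Bcl2l11, Bid and Pmaip1. The 10 genes were taken by symbol from the 27998 genes of the deposited matrices, and all 10 had at least 20 UMIs (unique molecular identifiers, 1 per captured RNA molecule) over both libraries. The mice were C57BL/6J and carried Cx3cr1-CreER::Rosa26-tdTomato. There was 1 library from cord taken 5 days after injury with lysolecithin, a lipid that strips myelin from axons, and 1 from uninjured age-matched cord. In both groups 4-hydroxytamoxifen (2 injections, 1 mg) at postnatal week 4 had switched on tdTomato in cells with an active Cx3cr1 gene, and tdTomato-positive cells were sorted 4 weeks after it. The labels do not give how many animals were pooled or their sex, and the label follows the Cx3cr1 promoter, so microglia, border macrophages and any monocyte-derived cell that carried it at the time are all included.

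Bcl2 proteins decide whether the outer mitochondrial membrane stays closed. Bax and Bak1 form the pores that release cytochrome c and start the caspase cascade, the survival proteins Mcl1, Bcl2, Bcl-xL (from Bcl2l1) and A1 (from the Bcl2a1 genes) hold them back, and BH3-only proteins such as Bim (Bcl2l11), Bid and Noxa (Pmaip1) engage the survival proteins or the effectors. Microglia are long-lived resident macrophages of the central nervous system that multiply after injury, and A1 is a survival protein of haematopoietic lineages.

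The injured library held 577 and the uninjured library 695 cells after filtering, with 3095511 and 2093084 UMIs and medians of 4396 and 3003 UMIs per cell. At least 3 of 8 microglia markers were found in 97.9% of injured and 98.6% of uninjured cells, and the libraries shared 0 cell barcodes. No injured and no uninjured cell had 3 markers of monocytes, neutrophils, B cells or T and NK cells. Cells with 3 markers of border macrophages numbered 7 injured and 6 uninjured, of MHC class II antigen presenting cells 3 and 11, and of oligodendrocytes 5 and 12. Cells with UMIs of Y-linked genes alone numbered 147 of 577 in the injured and 235 of 695 in the uninjured library, and cells with Xist alone numbered 213 and 6, and the part of sex in the ratios was not tested. With 1 library per group there is no replicate check: every ratio compares these libraries, and every interval covers counting error only.

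Over all cells the survival genes summed higher and the BH3-only genes, mostly Pmaip1, summed lower in injured cells. Within bins of cells by their share of early response transcripts, the BH3-only sum had ratios with intervals that include 0. Single BH3-only genes had intervals that exclude 0 in some bins. The part of the early response in the sums over all cells was not tested. The 5 survival genes summed to 1972 CPM (UMIs of a gene per 1000000 UMIs of its library) in injured and 969 CPM in uninjured cells, a log2 ratio of injured over uninjured of 1.02 (95% counting interval 0.95 to 1.10). Bax and Bak1 together held 323 CPM in injured and 215 CPM in uninjured cells, a log2 ratio of 0.59 (0.43 to 0.75). The 3 BH3-only genes summed to 211 CPM in injured and 316 CPM in uninjured cells, a log2 ratio of −0.58 (−0.74 to −0.42). Pmaip1 gave 403 of the 654 injured and 458 of the 662 uninjured UMIs of that sum. Early response genes, described further on, held 10657 CPM in injured and 21923 CPM in uninjured cells. In cells split by their early response share, from lowest to highest, the BH3-only sum had log2 ratios of 0.13, −0.16, 0.30 and 0.23, all with intervals that include 0, while the survival sum had 1.48, 1.27, 1.22 and 0.92. Of the BH3-only genes, Bid was below 0 in every bin, at −1.06, −0.37, −0.09 and −0.33. Its interval excluded 0 in the lowest bin only (−1.72 to −0.35). Bcl2l11 had 0.80, 0.76, 0.83 and −0.44, the last from 3 injured UMIs. Its interval excluded 0 only in the bin next to the lowest (0.04 to 1.53). Pmaip1 had 1.47, −0.35, 0.26 and 0.43, with intervals that excluded 0 in the lowest bin and the one next to it. Of all UMIs of the 10 genes, survival genes took 78.7% in injured and 64.6% in uninjured cells, effectors 12.9% and 14.3%, and BH3-only genes 8.43% and 21.1%. Most of the survival sum came from Bcl2a1b and Bcl2a1d. Without these, Mcl1, Bcl2 and Bcl2l1 summed to 442 CPM in injured and 345 CPM in uninjured cells, a log2 ratio of 0.36 (0.23 to 0.49).

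Gene by gene, 3 of the 10 were at least 2-fold higher in injured cells (Bcl2a1b, Bcl2a1d and Bcl2) and 0 were at least 2-fold lower. Among the 9066 genes measured, 7.22% were at least 2-fold higher and 11.5% at least 2-fold lower. The counting interval lay above 0 for 6 of the 10 genes, against 17.1% of measured genes, and below 0 for 2 (Bid and Pmaip1), against 25.8%. The median log2 ratio was 0.53 over the 10 genes and −0.15 over all measured genes. The method counts 1 tag near the 3′ end of each molecule, so CPM is not divided by transcript length.

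**Figure D1:**
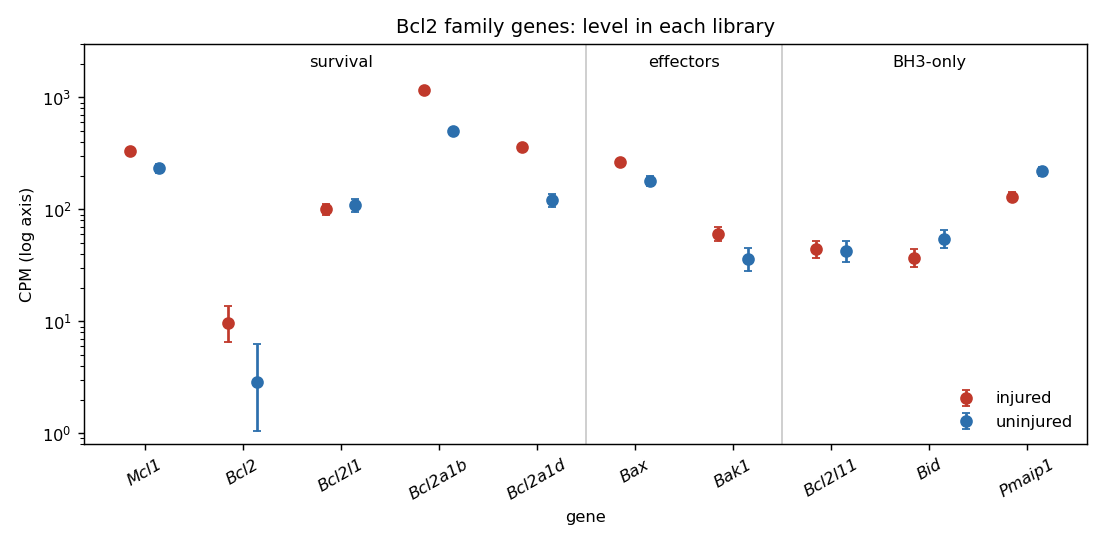
Level of each of the 10 genes in CPM, on a log axis, in the injured (red, left of each pair) and uninjured (blue, right) library; bars are exact Poisson 95% intervals and cover counting error only. Bcl2a1b stands highest in both libraries, at 1167 and 504 CPM, and Bcl2 lowest, at 9.69 and 2.87 CPM.

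Bcl2a1b and Bcl2a1d encode 2 of the near-identical mouse copies of A1, a survival protein that binds BH3-only proteins. Bcl2a1b (GRCm38 chr9:89199209-89207827, plus strand) had 3611 UMIs in injured and 1054 UMIs in uninjured cells, which is 1167 CPM (1129 to 1205) and 504 CPM (474 to 535). Its log2 ratio was 1.21 (1.11 to 1.31), or 2.32-fold higher in injured cells. Bcl2a1d (chr9:88723285-88731914, minus strand) had 1123 UMIs in injured and 252 UMIs in uninjured cells, which is 363 CPM (342 to 385) and 120.4 CPM (106 to 136). Its log2 ratio was 1.59 (1.39 to 1.79), or 3.01-fold higher in injured cells. The counting intervals of the libraries did not overlap for either gene.

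The copies are hard to tell apart by a short read. Over 817 aligned bases of their GENCODE M21 transcripts, Bcl2a1b and Bcl2a1d differed at 7 positions (99.1% identical). The difference closest to the 3′ end, where the tags lie, is T641A, counted from 1 at the 5′ end of the Bcl2a1b transcript and 176 bases from its 3′ end. The 25 bases around it are shown because this single letter is what separates the counts nearest the tagged end; the capital marks the differing base.
Bcl2a1b: atgacaggacagTtctgggaaatgc
Bcl2a1d: atgacaggacagAtctgggaaatgc
Of the 100-base windows among the last 300 of each transcript, 28.7% for Bcl2a1b and 53.3% for Bcl2a1d occur unchanged in another Bcl2a1 transcript. How reads that fit several copies were counted is not given in the sources used here, so the split between the copies is uncertain. Bcl2a1b had 3.22 UMIs for each of Bcl2a1d in injured cells (3.01 to 3.44) and 4.18 in uninjured cells (3.64 to 4.82). Summed over the 4 copies Bcl2a1a, Bcl2a1b, Bcl2a1c and Bcl2a1d, which does not depend on that split, the level was 1802 CPM in injured and 759 CPM in uninjured cells, a log2 ratio of 1.25 (1.17 to 1.33).

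The promoters of the copies are also nearly alike, and they are printed because both genes were higher in injured cells. Promoters of 9 of the 10 genes were in the RefSeq table (GRCm38.p6), as 250 bases before to 50 after a start. The RefSeq starts, 89199273 for Bcl2a1b and 88731850 for Bcl2a1d, lie inside the GENCODE genes given above, so the windows reach into both. The windows below are chr9:89199023-89199322 (plus strand) for Bcl2a1b and chr9:88731801-88732100 (minus strand) for Bcl2a1d, and capitals mark the ETS core GAGGAA and the AP-1 site TGANTCA on either strand.
Bcl2a1b: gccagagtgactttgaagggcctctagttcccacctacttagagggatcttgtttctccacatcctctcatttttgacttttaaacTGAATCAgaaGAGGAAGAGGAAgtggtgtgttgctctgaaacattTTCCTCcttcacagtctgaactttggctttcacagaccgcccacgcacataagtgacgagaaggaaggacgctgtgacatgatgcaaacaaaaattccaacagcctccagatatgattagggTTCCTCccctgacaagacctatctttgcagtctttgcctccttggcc
Bcl2a1d: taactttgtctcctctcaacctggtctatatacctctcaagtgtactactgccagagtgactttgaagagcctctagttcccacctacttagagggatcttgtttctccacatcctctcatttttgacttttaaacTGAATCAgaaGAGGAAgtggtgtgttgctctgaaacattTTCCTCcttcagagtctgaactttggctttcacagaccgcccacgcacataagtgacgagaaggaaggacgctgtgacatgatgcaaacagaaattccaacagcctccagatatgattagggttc
Over 250 aligned bases these windows differed at 3 positions, beside a gap of 6 bases. GAGGAA had 4 matches for Bcl2a1b and 2 for Bcl2a1d, and TGANTCA had 1 match for each. The windows are offset against each other, and within the part that aligns GAGGAA had 3 matches for Bcl2a1b and 2 for Bcl2a1d. Of 32851 promoters of the same length, 28.3% held GAGGAA and 7.81% held TGANTCA. The motif TGACGTCA, the interferon element (GAAA, NN, GAAA) and the kappa-B consensus, held by 1.79%, 3.44% and 4.51% of promoters, had no match in either window. A match is a description of letters and not a measured binding site.

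More injured cells had a Bcl2a1 molecule at equal depth. With each cell thinned to 1500 UMIs, which left 567 injured and 604 uninjured cells and left out 10 and 91 shallower cells, Bcl2a1b was found in 70.2% of injured cells (66.2 to 73.9) and 46.4% of uninjured cells (42.3 to 50.4). Unthinned, the shares were 89.1% of injured and 64.5% of uninjured cells. Bcl2a1d was found in 37.4% of injured and 15.2% of uninjured thinned cells, and in 66.9% and 24.3% unthinned. Cells with 5 or more Bcl2a1b UMIs made up 7.41% of injured and 1.49% of uninjured thinned cells, and cells with both genes 31.9% and 10.8%. As a gauge of free RNA, barcodes with endothelial or oligodendrocyte precursor markers, cells that should lack A1, numbered 5 in the injured library (median 3262 UMIs) and 4 in the uninjured library (median 1737 UMIs). Bcl2a1b was found in 0 of these 5 and in 2 of these 4, with 1 UMI each, and Bcl2a1d in 0 of either, too few barcodes to bound the background closely.

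Mcl1 encodes a short-lived survival protein that sequesters Bak1, Bim and Noxa. Mcl1 (chr3:95658788-95663176, plus strand) had 1029 UMIs in injured and 488 UMIs in uninjured cells, which is 332 CPM (312 to 353) and 233 CPM (213 to 255). Its log2 ratio was 0.51 (0.35 to 0.67), or 1.43-fold higher in injured cells. It was found in 39.2% of injured and 26.5% of uninjured thinned cells, and in 69.5% and 42.7% unthinned. The level in injured cells was thus above that in uninjured cells by less than the 2-fold limit.

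Bcl2, the founding survival gene, had few molecules. Bcl2 (chr1:106538178-106714274, minus strand) had 30 UMIs in 27 injured cells and 6 UMIs in 6 uninjured cells, which is 9.69 and 2.87 CPM, a log2 ratio of 1.76 (0.47 to 3.31). With every cell thinned the log2 ratio was 0.51, and in cells with Y-linked UMIs alone 0.56, so its size is poorly set by so few molecules. At equal depth it was found in 0.705% of injured and 0.497% of uninjured cells.

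Bcl2l1 encodes Bcl-xL, the survival protein that holds Bax in the cytosol, and its levels lay close together. Bcl2l1 (chr2:152780668-152831728, minus strand) had 310 UMIs in injured and 229 UMIs in uninjured cells, which is 100.1 and 109 CPM, a log2 ratio of −0.13 (−0.38 to 0.13). The sign turned to 0.02 when scaled by TMM, 0.06 when scaled by DESeq2, and 0.13 in cells with Y-linked UMIs alone. It was found in 14.5% of injured and 15.7% of uninjured thinned cells, and in 35.7% and 27.8% unthinned. The interval includes no difference and excludes a 2-fold one in either direction.

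Summed over all cells, both effectors were moderately higher in the injured library. Bax (chr7:45461697-45466898, minus strand), which moves from cytosol to mitochondria when activated, had 814 UMIs in injured and 375 UMIs in uninjured cells, which is 263 and 179 CPM, a log2 ratio of 0.55 (0.38 to 0.73). Bak1 (chr17:27019810-27029009, minus strand), which sits on mitochondria, had 186 UMIs in injured and 75 UMIs in uninjured cells, which is 60.1 and 35.8 CPM, a log2 ratio of 0.75 (0.35 to 1.15). Neither reached 2-fold. Bax was found in 28.7% of injured and 23.8% of uninjured thinned cells, and Bak1 in 7.76% and 5.96%, shares whose intervals overlap, against 64.8% and 39.6% for Bax and 23.7% and 10.4% for Bak1 unthinned. With every cell thinned the log2 ratio of Bax was 0.34, and in cells with Y-linked UMIs alone it was 0.26. In cells split by their early response share, from lowest to highest, the sum of both had 0.57, 0.30, 0.31 and 0.33. Its intervals include 0 in cells with a share of 2% or more. Bak1 alone had 1.26, 0.03, 0.45 and −0.92, the last from 1 injured UMI. Only its interval in the lowest bin excluded 0 (0.34 to 2.36). Bak1 overlaps Ggnbp1 on the opposite strand, which had 20 injured and 11 uninjured UMIs.

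The BH3-only genes differed among themselves. Bcl2l11 (chr2:128126038-128162547, plus strand), whose protein Bim binds all survival members, had 136 UMIs in injured and 89 UMIs in uninjured cells, which is 43.9 and 42.5 CPM, a log2 ratio of 0.05 (−0.35 to 0.45). Bid (chr6:120891930-120916853, minus strand), which links death receptors to mitochondria once caspase 8 has cut it, had 115 UMIs in injured and 115 UMIs in uninjured cells, which is 37.2 and 54.9 CPM, a log2 ratio of −0.56 (−0.95 to −0.18). Pmaip1 (chr18:66458533-66465565, plus strand), whose protein Noxa binds Mcl1 and A1, had 403 UMIs in injured and 458 UMIs in uninjured cells, which is 130.2 and 219 CPM, a log2 ratio of −0.75 (−0.95 to −0.55). Over all cells Pmaip1 was thus 1.68-fold lower and Bid 1.48-fold lower in injured cells, and the interval of Bcl2l11 includes 0. For Pmaip1 the direction turned in cells with under 1% of their UMIs from early response genes, where its log2 ratio was 1.47 (0.44 to 2.71). At equal depth Pmaip1 was found in 15.7% of injured and 23.2% of uninjured cells, Bid in 4.59% and 6.79%, and Bcl2l11 in 6.70% and 5.63%. Unthinned, the shares were 36.7% and 37.1% for Pmaip1, 16.8% and 15.5% for Bid, and 19.4% and 11.4% for Bcl2l11. Bid overlaps Bcl2l13 on the opposite strand, which had 31 injured and 21 uninjured UMIs.

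Set against each other, Mcl1 and its partner Pmaip1 had a UMI ratio of 2.55 in injured cells (2.27 to 2.87) and 1.07 in uninjured cells (0.936 to 1.21). In cells with under 1% of their UMIs from early response genes the ratio was 3.34 in injured (2.70 to 4.16) and 3.38 in uninjured cells (1.49 to 8.60), from 8 uninjured Pmaip1 UMIs. From 1% up, by bin, it was 2.60, 1.72 and 1.60 in injured cells and 1.09, 0.933 and 1.10 in uninjured cells. The uninjured interval under 1% is too wide to tell whether the difference between the libraries varied by bin. The ratio of Bax to Bak1 was 4.38 in injured and 5 in uninjured cells, with intervals that overlap. Per cell, the median number of the 10 genes found at equal depth was 2 in injured and 2 in uninjured cells. At least 1 survival gene was found in 82.0% of injured and 69.2% of uninjured thinned cells, and none of the 10 genes in 9.17% and 15.4%. An effector with no survival gene was found in 7.23% of injured and 8.28% of uninjured thinned cells, shares whose intervals overlap.

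**Figure D2:**
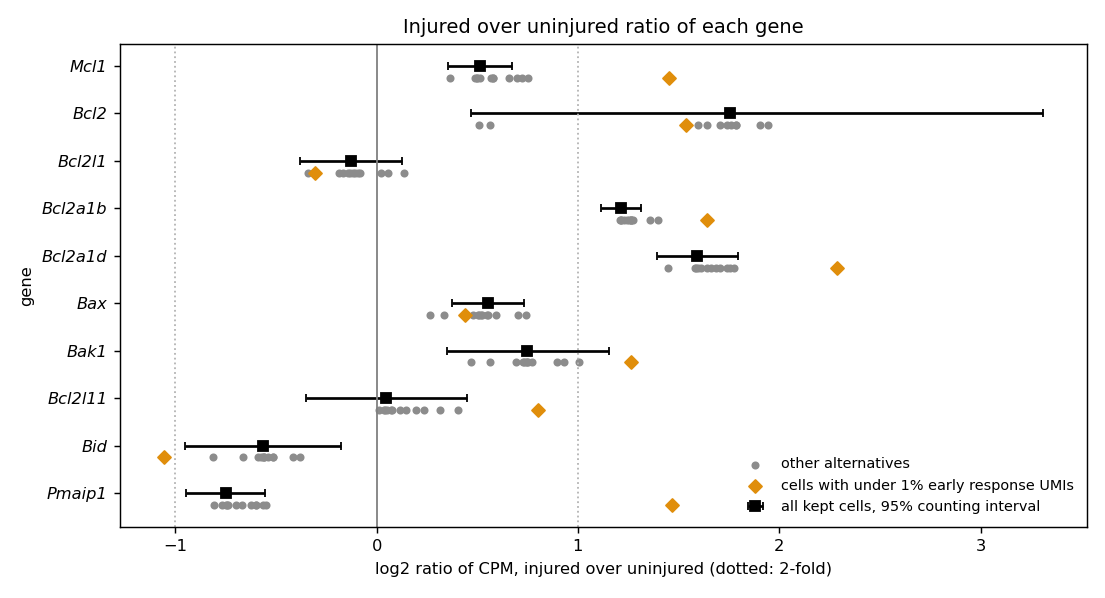
Log2 ratio of CPM, injured over uninjured, for each gene over all kept cells (black squares with 95% counting intervals), under other processing (grey) and in cells with under 1% of their UMIs from early response genes (orange diamonds); dotted lines mark 2-fold. The orange diamond of Pmaip1 lies at 1.47, on the other side of 0 from its value of −0.75 over all cells.

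A set of 22 early response genes, immediate early and heat shock genes known to respond to enzymatic digestion of tissue, differed between the libraries. Tissue of both groups was digested with collagenase at the same concentration, time and temperature, per the labels. The set summed to 10657 CPM in injured and 21923 CPM in uninjured cells. Of the 22 genes, 12 were at least 2-fold lower in injured cells, against 11.5% of all measured genes. Jun, a subunit of AP-1, had a log2 ratio of −2.05, the chaperone gene Hspa1a −1.74, the cytokine inhibitor Socs3 −1.62 and the phosphatase gene Dusp1 −1.50. Its share of a cell's UMIs had a median of 1.07% in injured and 2.20% in uninjured cells. Cells were therefore split by that share into under 1% (270 injured and 124 uninjured cells), 1 to 2% (212 and 185), 2 to 3% (72 and 222) and 3% or more (23 and 164). This split was chosen after values had been seen, and 63 injured and 17 uninjured cells lay within 0.1 of the 1% limit.

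Mcl1 was higher in injured cells in every bin, with values above the ratio over all cells. From the lowest to the highest bin it stood at 229, 416, 570 and 618 CPM in injured cells and at 83.6, 222, 259 and 316 CPM in uninjured cells. The log2 ratios were 1.45 (0.89 to 2.07, from 27 uninjured UMIs), 0.91 (0.63 to 1.19), 1.14 (0.81 to 1.46) and 0.97 (0.42 to 1.48). Over all cells the ratio was 0.51 (0.35 to 0.67), an interval that overlaps those at 1 to 2% and at 3% or more.

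Pmaip1 was not lower in injured cells in most bins. It stood at 68.4, 160, 332 and 386 CPM in injured cells and at 24.8, 205, 278 and 287 CPM in uninjured cells. Its log2 ratios were 1.47 (0.44 to 2.71, from 114 injured and 8 uninjured UMIs), −0.35 (−0.69 to −0.01), 0.26 (−0.12 to 0.63) and 0.43 (−0.25 to 1.05). In 3 of 4 bins the ratio was thus above 0, opposite in sign to the value over all cells. Within each library Pmaip1 was highest in the cells richest in early response transcripts.

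Bcl2a1b was higher in injured cells in all 4 bins, with log2 ratios of 1.64, 1.40, 1.38 and 1.01. It stood at 1004, 1383, 1261 and 1283 CPM in injured cells and at 322, 523, 486 and 635 CPM in uninjured cells. Bax ranged over 216 to 298 CPM in injured and 155 to 220 CPM in uninjured cells, with log2 ratios of 0.28 to 0.48. In the cells under 1%, 6 of the 10 genes were at least 2-fold higher in injured cells, against 11.5% of 9064 genes. At least 2-fold lower was 1 (Bid, at −1.06), against 18.5%. Beside the 3 genes named for all cells, those higher were Mcl1, Bak1 and Pmaip1. The 9064 genes had at least 20 UMIs over all cells, not within the cells under 1%, and a count of 0 was set to 3 UMIs. Bcl2 had only 15 injured and 1 uninjured UMI there; among the 9 genes with at least 20 UMIs within these cells, 5 were at least 2-fold higher, against 12.9% of 6380 genes, and 1 at least 2-fold lower, against 12.5%. The bins also differ in their cells: of the 124 uninjured cells under 1%, 86 were in cluster 2 and 32 in cluster 7, while of the 270 injured ones 93 were in cluster 4, 63 in cluster 3 and 54 in cluster 7 (clusters as described next). Without cluster 7 the log2 ratios in these cells were 1.53 for Mcl1 and 1.52 for Pmaip1 (106 injured and 7 uninjured UMIs). The part of the early response in the pooled ratios was not tested.

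**Figure D3:**
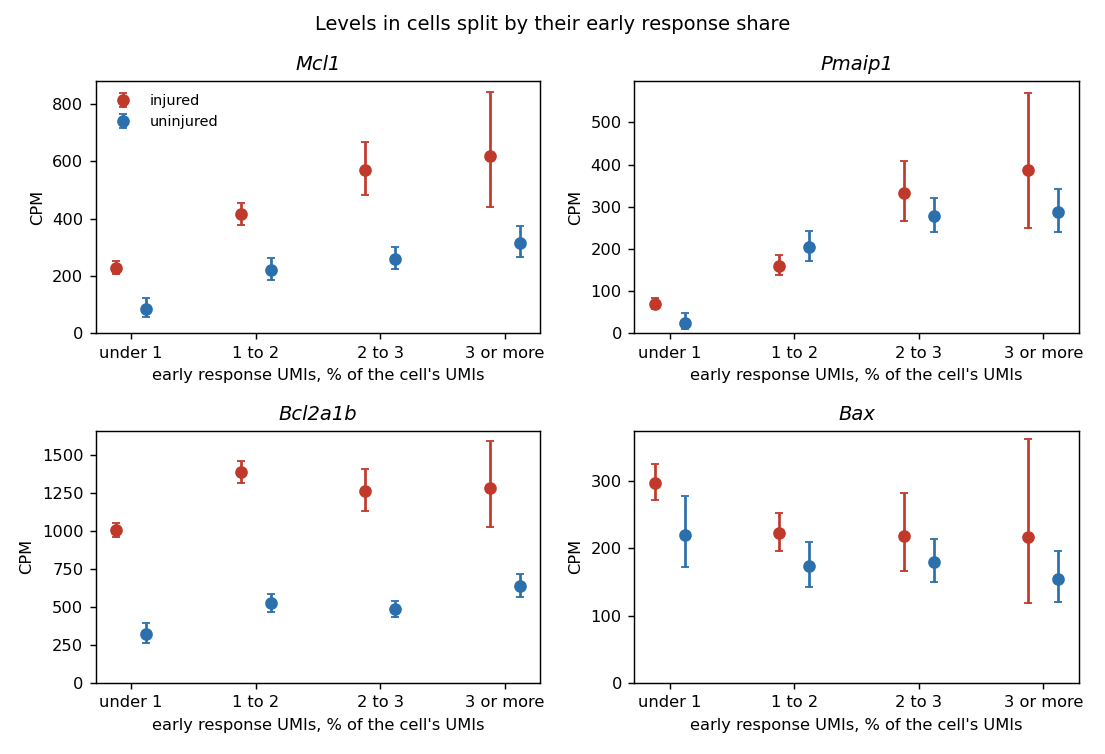
CPM of Mcl1, Pmaip1, Bcl2a1b and Bax in cells grouped by the percent of their UMIs from the early response genes, in injured (red, left) and uninjured (blue, right) cells, with exact Poisson 95% intervals. Injured Mcl1 and Bcl2a1b lie above uninjured in every bin, while Pmaip1 climbs with the bin in both libraries.

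Cells of both libraries were clustered together without the Bcl2 family genes, which gave 10 clusters, numbered by size and described by their leading genes. Injured cells made up most of cluster 3 (190 injured and 26 uninjured cells, led by Tnfrsf12a, Il1a and Rrad), cluster 4 (159 and 2, led by Lpl, Igf1 and Fn1) and cluster 8 (43 and 2, led by Rsad2, Iigp1 and Ifi205). Uninjured cells made up most of cluster 1 (22 injured and 227 uninjured cells, led by Ddit4, Cd27 and Rnd1), cluster 2 (12 and 214, led by Il16, Fam212a and P2ry13) and cluster 5 (23 and 107, led by Hspa1a, Batf and Junb). Cluster 6 (30 and 75, led by Fxyd4, Kdm6b and Bmp2k) and cluster 7 (54 and 32, led by Spp1, Lgals3 and Cst7) held at least 30 cells of both. The small clusters 9 (24 and 9, led by H2-Eb1) and 10 (20 and 1, led by the division gene Top2a) are left out where groups are ranked by level below.

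Over the 10 groups of at least 30 cells, 5 in each library, the copies of A1 were highest in injured clusters. Bcl2a1b reached 1447 CPM in injured cluster 3, 1287 CPM in injured cluster 4 and 1258 CPM in injured cluster 8, while its highest uninjured level was 742 CPM in cluster 5. Its lowest level of each library was in cluster 7, 496 CPM in injured and 273 CPM in uninjured cells. The uninjured interval there overlaps that of uninjured cluster 2. Bcl2a1d was highest in injured cluster 4 at 434 CPM, near the 424 CPM of injured cluster 3, and lowest in uninjured cluster 2 at 41.8 CPM. The few uninjured cells outside those groups were not all low: the 26 uninjured cells of cluster 3 held Bcl2a1b at 1027 CPM (834 to 1251).

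Mcl1, Bcl2l11 and Pmaip1 shared their lowest groups. Mcl1 was highest in injured cluster 6 at 532 CPM, which overlaps injured cluster 3 at 488 CPM, and stood at 63.6 CPM in injured and 58.4 CPM in uninjured cluster 7. Pmaip1 was highest in uninjured cluster 5 at 331 CPM and stood at 33.9 CPM in injured and 19.5 CPM in uninjured cluster 7. Bcl2l11 was highest in injured cluster 6 at 88.6 CPM and had 1 UMI in injured and 0 UMIs in uninjured cluster 7, where a count of 0 allows up to 58.4 CPM (3 UMIs). Cluster 7 is also where the early response set is lowest, at 1213 CPM in injured and 1207 CPM in uninjured cells, and its cells had a median of 901.5 genes, 18.0% of UMIs from ribosomal protein genes and 2759 CPM of the nuclear RNA Malat1. In the other clusters these ran from 1268.5 to 2245 genes, 11.3% to 14.8% and 7813 to 26938 CPM. The part of RNA content in the low levels of cluster 7 was not tested.

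Bax did not share that low point. It was highest in injured cluster 7 at 356 CPM and lowest in uninjured cluster 1 at 152 CPM. Bak1 was highest in injured cluster 4 at 75.9 CPM (61.8 to 92.3). Outside the ranked groups, the 20 dividing injured cells of cluster 10 stood at 396 CPM for Bax (296 to 519) and 99.0 CPM for Bak1 (52.7 to 169). Both intervals overlap those of the highest ranked groups. Bcl2l1 ranged over 72.1 to 124 CPM, and the interval of its highest group overlapped those of all 9 others. Bid ranged over 25.5 to 77.9 CPM, but its highest group, uninjured cluster 7, rests on 4 UMIs.

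Within single clusters the libraries did not differ in 1 direction throughout. Mcl1 stood at 488 CPM in the 190 injured and 597 CPM in the 26 uninjured cells of cluster 3, and at 364 CPM in the 23 injured and 390 CPM in the 107 uninjured cells of cluster 5, with intervals that overlap in both. Bcl2a1b stood at 1447 CPM in injured and 1027 CPM in uninjured cells of cluster 3 and at 1011 and 742 CPM in cluster 5. In cluster 1 it stood at 417 CPM in injured and 426 CPM in uninjured cells, and in cluster 2 at 241 and 320 CPM, with intervals that overlap in both. Cluster makeup and levels within a cluster thus both enter the ratios over all cells, and their parts were not tested. Clusters 6 and 7 held at least 30 cells of each library. In cluster 6 Mcl1 stood at 532 CPM in injured and 264 CPM in uninjured cells, a log2 ratio of 1.01 (0.48 to 1.54). Bcl2a1b stood there at 859 CPM in injured and 581 CPM in uninjured cells, a log2 ratio of 0.56 (0.18 to 0.95). Pmaip1 stood at 151 CPM in injured and 289 CPM in uninjured cells, a log2 ratio of −0.94 (−1.80 to −0.16), and the early response set at 15779 and 25370 CPM. In cluster 7 Bcl2a1b stood at 496 CPM in injured and 273 CPM in uninjured cells, a log2 ratio of 0.86 (0.06 to 1.78), and Bax at 356 and 175 CPM, a log2 ratio of 1.02 (0.03 to 2.20). Mcl1 stood there at 63.6 CPM in injured and 58.4 CPM in uninjured cells, a log2 ratio of 0.12 (−1.70 to 2.55). Bcl2a1d, in contrast, stood at 140 CPM in injured and 195 CPM in uninjured cells of cluster 7, with an interval that includes 0 (−1.53 to 0.71). The median cell of cluster 7 had 3828 UMIs in the injured and 1571 UMIs in the uninjured library.

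**Figure D4:**
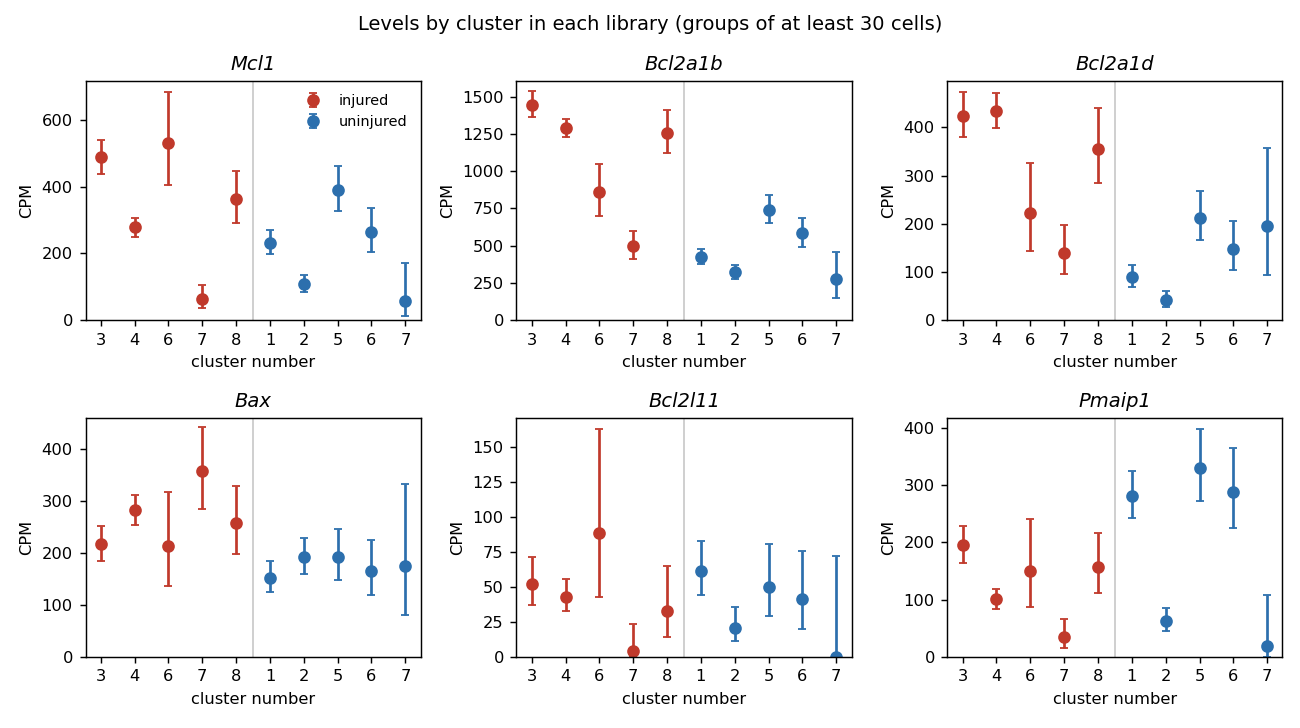
CPM of 6 genes in each cluster with at least 30 cells of a library, injured clusters (red) left of uninjured clusters (blue), with exact Poisson 95% intervals. Cluster 7 is the lowest group of each library for Mcl1, Bcl2l11, Pmaip1 and Bcl2a1b, and not for Bax.

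Across the same 10 groups, which share 2 libraries and differ in depth, the genes whose pattern was most like each member were found by Pearson r of log2(CPM + 10) among 2856 genes. Pmaip1 was most like the chaperone genes Hsp90aa1 and Dnajb1 (r = 0.97 each) and Gt(ROSA)26Sor (0.97), the noncoding transcript of the Rosa26 locus. Bcl2l11 was most like Zfp36l1, a gene for an RNA decay factor (0.99), Top1 (0.97) and Ddx3x (0.97), and Mcl1 most like the splicing factor gene Sfpq, Rrad (0.98 each) and Spty2d1 (0.97). Over the 10 groups, Pmaip1, Bcl2l11 and Mcl1 had r of 0.92, 0.89 and 0.78 with the early response sum. These values include both groups of cluster 7, at 1213 and 1207 CPM of that sum, against 9204 to 30708 CPM in the other groups. No r was computed without cluster 7. Outside it, Mcl1 had its lowest level, 108 CPM, at 13885 CPM of the sum and its highest, 532 CPM, at 15779 CPM. Bcl2a1b was most like Lamtor3 (0.96), the lamin gene Lmnb1 (0.95) and the cytokine gene Il1b (0.94), and Bcl2a1d most like the urokinase receptor gene Plaur (0.95), Tmsb10 (0.90) and the growth factor gene Csf1 (0.89). Bax was most like Ms4a7 and Apoc1 (0.97 each) and the lysozyme gene Lyz2 (0.96). Bak1 was most like Ppib (0.96), Akr1b3 (0.92) and Tmed10 (0.91). Bid was most like Fkbp4 (0.94), St3gal5 (0.93) and Mdp1 (0.93). For Bcl2l1 the values were lower, with Yeats4 at 0.86, Prpf4b at 0.85 and Tmem33 at 0.84. Bcl2 had too few UMIs for this comparison.

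Of 16 other Bcl2 family genes, 10 were measured, with a median log2 ratio of 0.01. Of these, 2 were at least 2-fold higher in injured cells and 1 at least 2-fold lower, against 7.22% and 11.5% of all measured genes. The remaining copies of A1 were higher, Bcl2a1a at 256 CPM in injured and 128 CPM in uninjured cells (1.00, just under 2-fold) and Bcl2a1c with 51 injured and 14 uninjured UMIs (1.30). The BH3-only gene Bmf had 5 injured and 21 uninjured UMIs (−2.63, −4.40 to −1.19), and Bik 24 injured and 8 uninjured UMIs (1.02, −0.18 to 2.38). Bnip3, a mitophagy receptor gene, stood at 78.2 CPM in injured and 45.9 CPM in uninjured cells (0.77). Bbc3, which encodes Puma, had 30 injured and 32 uninjured UMIs (−0.66, −1.43 to 0.11). Bad (0.02), Bnip3l (−0.02), Bcl2l13 (−0.00) and Bcl2l12 (−0.30) had intervals that include 0.

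Downstream of the pore, 15 genes of the apoptosome and its effectors were measured, with a median log2 ratio of 0.03. Of these, 0 were at least 2-fold higher and 1 at least 2-fold lower, against 7.22% and 11.5% of all measured genes. Cycs, the gene of cytochrome c itself, stood at 242 CPM in injured and 188 CPM in uninjured cells (0.36, 0.19 to 0.54), the channel gene Vdac3 at 147 and 110.4 CPM (0.41), and Htra2, a mitochondrial protease gene, at 44.9 and 67.8 CPM (−0.60). Parp1, a caspase substrate gene, stood at 72.4 and 42.5 CPM (0.77), but 1 injured cell held 88 of its 224 injured UMIs. Among 7 measured inhibitors of apoptosis, 0 were at least 2-fold higher and 1 at least 2-fold lower, against the same shares of all measured genes. Birc2 stood at 22.0 CPM in injured and 44.4 CPM in uninjured cells (−1.02, −1.49 to −0.55), Birc3 at 36.5 and 67.8 CPM (−0.89), while Xiap (−0.23) and Birc6 (0.34) had intervals that include 0.

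Upstream, the death receptor and necroptosis list had 12 measured genes, 1 at least 2-fold higher, 1 at least 2-fold lower and a median of −0.23. Over all measured genes, 7.22% were at least 2-fold higher and 11.5% at least 2-fold lower. The receptor gene Fas had 55 injured and 15 uninjured UMIs (1.31, 0.47 to 2.24), and Casp8, whose product cuts Bid, stood at 120 CPM in injured and 175 CPM in uninjured cells (−0.55, −0.76 to −0.34). The necroptosis kinase gene Ripk3 had 16 injured and 23 uninjured UMIs (−1.09), and the receptor gene Tnfrsf1b stood at 29.4 and 40.6 CPM (−0.47). Of 10 measured p53 genes, 2 were at least 2-fold higher and 1 at least 2-fold lower, against the same shares of all measured genes. Their median was −0.38. Mdm2, which marks p53 for degradation, stood at 190 CPM in injured and 76.9 CPM in uninjured cells (1.30, 1.05 to 1.56) and the cyclin gene Ccng1 at 51.0 and 22.0 CPM (1.22), while the stress gene Gadd45a stood at 53.6 and 151 CPM (−1.50) and Trp53 at 109 and 153 CPM (−0.49). Bax and Pmaip1, both p53 targets, lay on opposite sides of 0 over all cells, and on the same side in 3 of the 4 early response bins.

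Of 11 measured genes that act on Mcl1 turnover or BH3-only proteins, 0 were at least 2-fold higher and 1 at least 2-fold lower. Over all measured genes the shares were 7.22% and 11.5%. The median of the list was −0.43. Ddit3, a stress factor gene that acts on Bcl2l11, stood at 77.2 CPM in injured and 150 CPM in uninjured cells (−0.96), the kinase gene Gsk3b at 45.2 and 73.1 CPM (−0.69), Btrc, a ubiquitin ligase subunit gene, at 12.3 and 26.3 CPM (−1.10), and Ywhaz, whose 14-3-3 protein holds Bad in the cytosol, at 125 and 93.6 CPM (0.42).

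**Figure D5:**
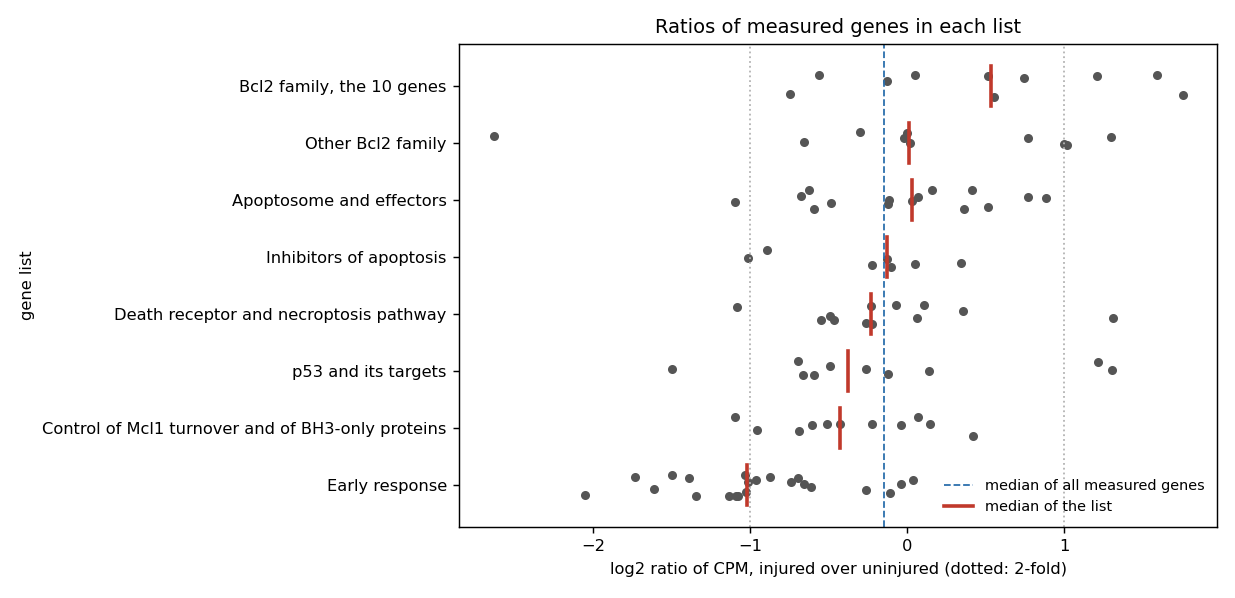
Log2 ratio of CPM, injured over uninjured, of each measured gene (dots) in the 10 Bcl2 family genes and 7 other lists; red bars are list medians, the dashed line is the median of all measured genes (−0.15) and dotted lines mark 2-fold. The 10 genes have a median of 0.53 and the early response list one of −1.02.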

How the data were processed

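The authors deposited UMI counts, whole numbers for each gene in each barcode, from 10x Chromium 3′ version 2 libraries, per the labels. GRCm38.p5 (mm10), Cell Ranger 2.0.1, STAR and Seurat 2.1.0 were used, per the submitters' processing notes. Their roles, the annotation and the barcode filter were not given in the sources used here. Scatter gates removed doublets before capture, per the labels' protocols, and no doublet caller was run. The matrices held 580 injured and 705 uninjured barcodes, the recovered numbers in the labels. Kept barcodes had 200 genes or more and no more than 10% mitochondrial UMIs, which removed 3 injured and 10 uninjured barcodes.

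UMIs were summed per library and scaled to CPM. Intervals are exact 95% ones, Poisson for CPM and Clopper-Pearson for shares and ratios, and cover counting error only; a count of 0 was taken as up to 3 UMIs. With 1 library per group no p-value was computed. Genes with 20 or more UMIs in total counted as measured. Shares used cells thinned to 1500 UMIs. Clusters came from 2000 variable genes, 20 components, 15 neighbours and Leiden resolution 0.8 (scanpy 1.11.5, igraph 0.11.9), without Bcl2 family and sex-linked genes. TMM (edgeR 4.0.16) and DESeq2 1.42.0 factors served as alternative scalings only, and the ratio script was tested on simulated data.

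The 10 genes and all lists were chosen with earlier results of these data known. The text names all 10 genes, the measured other Bcl2 family genes, up to 4 genes per other list whose interval bound nearest 0 lies farthest from it, and the 3 genes most like each member. Cluster 7, the early response split and the single cell rich in Parp1 were singled out after their values were seen. Gene positions are from GENCODE M21, on GRCm38.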

Additional observations from a re-analysis of the deposited data

How the results depend on the processing

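TMM and DESeq2 factors shifted the median of all genes by 0.15 and 0.19 on the log2 scale. DESeq2 size factors gave log2 ratios, injured over uninjured, of 0.70 for Mcl1, 1.40 for Bcl2a1b, 0.74 for Bax and a median of 0.72 over the 10 genes, and TMM gave 1.36 for Bcl2a1b. The mean of per-cell CPM gave 0.72 for Mcl1 and −0.55 for Pmaip1, and thinning every cell 0.75 for Mcl1 and 0.34 for Bax. Cells with Y-linked UMIs alone gave 0.13 for Bcl2l1 and 0.26 for Bax. Cells with under 1% early response UMIs, chosen after seeing the data, gave 1.45 for Mcl1, 1.64 for Bcl2a1b, 2.29 for Bcl2a1d, 1.26 for Bak1, 0.80 for Bcl2l11, −1.06 for Bid and 1.47 for Pmaip1, a median of 1.36, and 6 genes at least 2-fold higher and 1 lower; the cause was not tested. Leaving out cluster 7 or the cluster led by H2-Eb1, also chosen after seeing the data, moved no ratio of a member beyond its interval. Of the ratios of the 10 genes under all alternatives, 112 stayed within the interval over all cells and 17 did not. The number at least 2-fold higher was 2 when every cell was thinned, where Bcl2 fell below 2-fold. It was also 2 at a minimum of 100 UMIs, which Bcl2 did not reach. Without the 10 cells with most UMIs of each gene it was 2 as well, because Bcl2 then had no uninjured UMI left and no ratio. No paired analysis was possible because each group is 1 library. Depth limits Bcl2 (36 UMIs in all) and the levels in small clusters most.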

Other observations

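Cells with Y-linked UMIs alone and cells with Xist alone could be set side by side within the injured library, where they numbered 147 and 213. Bcl2a1b stood at 1338 CPM in the Y-linked cells and 1193 CPM in the Xist cells, Mcl1 at 360 and 353 CPM, Bax at 245 and 242 CPM, and Pmaip1 at 144 and 141 CPM. In the uninjured library the 235 Y-linked cells stood at 557 CPM for Bcl2a1b, 280 CPM for Mcl1, 204 CPM for Bax and 222 CPM for Pmaip1, and only 6 cells had Xist alone. A further 17 injured and 2 uninjured cells had UMIs of both kinds, and 200 injured and 452 uninjured cells had neither. The injured cells with neither stood at 998 CPM for Bcl2a1b, 296 for Mcl1, 317 for Bax and 113 for Pmaip1. The uninjured ones stood at 472, 205, 167 and 219 CPM. Ratios in cells with Y-linked UMIs alone leave these cells out as well, so they do not set apart sex alone.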
